A study of Homo sapiens with 2 samples.

Results

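The genes described here carry out or control the making of cholesterol and fatty acids. They are 38 genes taken from a list of symbols, out of 25702 genes in the count files, and all 38 matched a symbol of the authors' deposited table and were joined to the counts by Entrez ID. RNA was sequenced from asynchronous K562, a human erythroid leukemia line that carries the BCR-ABL1 fusion, grown in RPMI medium with serum. One library came from cells kept for 48 h in 1 µM cabozantinib (XL184), which inhibits several receptor tyrosine kinases such as MET, AXL and the VEGF receptors, and the other from cells kept for 48 h in the solvent DMSO. Each group holds 1 library of this single line, so the differences below were not checked in replicates, no p-value was computed, and the intervals cover counting error only.

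Cells make cholesterol from acetyl-CoA through mevalonate, squalene and lanosterol, and make fatty acids from the same acetyl-CoA by carboxylation, chain building, elongation and desaturation. The SREBP transcription factors switch on genes of both routes when sterols in the endoplasmic reticulum are low. SCAP escorts them to the Golgi for cleavage, INSIG proteins hold SCAP back when sterols are high, and the LXR nuclear receptors sense oxysterols and switch on sterol export. Dividing leukemic cells use these routes to build membrane, and serum in the medium supplies lipoprotein cholesterol as well.

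Expression of most of the 38 genes differed by less than 1.5-fold between the libraries. One gene, ELOVL1, was at least 1.5-fold higher with cabozantinib, where 8.15% of all 12536 measured genes were, and 4 genes (VLDLR, STARD4, FADS2 and NR1H3) were at least 1.5-fold lower, where 12.3% of all measured genes were. The other 33 genes were within 1.5-fold. A gene counted as measured at 1 CPM (count for each 1000000 counts, after TMM scaling) or more in either library, and all 38 were. VLDLR reached 1 CPM in the DMSO library only, where it was higher. A gene counted as higher or lower when the exact 95% interval of the ratio of its 2 counts also excluded no change. Scaling by total counts gave 6.05% higher and 14.6% lower among all measured genes, and 1 higher and 5 lower among the 38. At 1.5-fold neither share of the 38 genes is above that of all measured genes. At 2-fold, 0 genes were higher and 1 lower, against 2.71% and 5.76% of all measured genes. At a threshold of 25%, 8 of 38 were higher and 8 lower, both slightly above the 19.2% and 20.5% of all measured genes. Of the 36 genes with a mean of 10 CPM or more, 1 was higher and 2 lower, against 6.28% and 7.52% of all genes at that level.

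The libraries held 25025243 counts (DMSO) and 25505289 counts (cabozantinib). All 15 erythroid markers checked were measured, 14 of them at least 1.5-fold higher with cabozantinib (GATA1 was within), and their summed level went from 15203 to 43862 CPM. Markers of hepatocytes and adipocytes, cell types known for lipid synthesis, summed to 0.272 and 0.155 CPM in DMSO and to 0.202 and 0.242 CPM with cabozantinib, with TTR, CYP3A4, PLIN1, FABP4 and LEP at 0 counts in both libraries. A count of 0 allows up to 3 counts. Of 5 macrophage and monocyte markers 2 were measured, CD68 and LYZ, both lower, and the list went from 53.0 to 21.6 CPM in sum. Lymphocyte markers summed to 11.1 and 3.07 CPM, with MS4A1 at 0 counts in both, and fibroblast markers to 6.44 and 3.35 CPM, with LUM at 0 in both. The part of these marker differences in the lipid gene values was not tested, and in bulk RNA fewer cells of a type and less RNA per cell cannot be told apart.

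The stretches before the RefSeq starts of 5 of these genes are shown. They cover the higher gene ELOVL1, the lower genes STARD4 and VLDLR, and INSIG1, which had the highest ratio inside 1.5-fold. SREBF2 is shown as the one gene, among those with a matched promoter, with the exact sterol regulatory element letters searched in this window. Each stretch is the 250 bases just before the start, 5′ to 3′ on the strand of the gene. The sequences are from GRCh38.p14, a build other than that of the counts. They lie at chr1:43368012-43368261 (ELOVL1, minus strand), chr5:111512536-111512785 (STARD4, minus), chr9:2621537-2621786 (VLDLR, plus), chr7:155297628-155297877 (INSIG1, plus) and chr22:41832855-41833104 (SREBF2, plus). Capitals mark the CCAAT box (CCAAT or ATTGG), the GC box (GGGCGG or CCGCCC) and the sterol regulatory element (TCACNCCAC or its reverse complement), which may touch or overlap each other.
ELOVL1: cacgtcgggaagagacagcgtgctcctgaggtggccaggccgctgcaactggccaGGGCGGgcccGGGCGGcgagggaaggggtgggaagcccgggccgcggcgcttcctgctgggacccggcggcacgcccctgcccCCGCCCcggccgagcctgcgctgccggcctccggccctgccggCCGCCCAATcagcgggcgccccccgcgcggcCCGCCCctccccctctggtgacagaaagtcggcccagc
STARD4: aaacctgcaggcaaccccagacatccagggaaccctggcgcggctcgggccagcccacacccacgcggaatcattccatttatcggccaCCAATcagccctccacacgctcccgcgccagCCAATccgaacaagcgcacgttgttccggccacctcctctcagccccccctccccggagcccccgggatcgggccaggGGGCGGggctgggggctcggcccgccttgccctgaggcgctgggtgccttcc
VLDLR: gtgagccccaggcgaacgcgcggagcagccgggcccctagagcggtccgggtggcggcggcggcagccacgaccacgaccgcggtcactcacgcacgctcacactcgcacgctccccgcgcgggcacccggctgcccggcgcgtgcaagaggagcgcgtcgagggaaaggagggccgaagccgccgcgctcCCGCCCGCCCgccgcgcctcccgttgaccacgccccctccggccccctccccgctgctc
INSIG1: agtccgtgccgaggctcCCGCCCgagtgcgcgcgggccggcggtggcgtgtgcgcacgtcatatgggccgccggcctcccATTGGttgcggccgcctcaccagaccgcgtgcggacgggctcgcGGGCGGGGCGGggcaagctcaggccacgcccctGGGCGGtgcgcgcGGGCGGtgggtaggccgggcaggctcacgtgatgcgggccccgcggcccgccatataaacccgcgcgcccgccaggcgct
SREBF2: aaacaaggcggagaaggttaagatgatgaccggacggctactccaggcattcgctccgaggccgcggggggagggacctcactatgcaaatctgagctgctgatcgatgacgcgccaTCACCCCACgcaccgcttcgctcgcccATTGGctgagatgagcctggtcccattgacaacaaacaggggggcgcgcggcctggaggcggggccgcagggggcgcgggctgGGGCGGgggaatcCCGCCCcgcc

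RefSeq promoters were matched for 34 of the 38 genes, 48 starts in all. The FADS2 starts among them differ from the FADS2 start in the deposited annotation and lie beside the FADS1 start. A CCAAT box, a motif bound by NF-Y, which is known to work beside SREBP, was found before 27 of these 48 starts (56.25%), against 32.0% of all 35116 starts and 33.5% of the 13975 starts of measured genes. Among the sterol synthesis enzymes it was found before 15 of 20 starts, and among the fatty acid enzymes before 7 of 12. By gene, 13 of 15 and 5 of 8 matched genes held it before at least 1 start, and no such share by gene was computed over all genes. Starts of 1 gene can lie close together, as for ACLY, so the same box can be counted more than once. A GC box, the motif of SP1, was found before 41 of 48 starts, against 64.0% of the starts of measured genes. The sterol regulatory element in the exact letters searched was found before 1 of 48 starts, that of SREBF2, against 0.883% of all starts. The amino acid response element TGATGNAA, bound by ATF4, was found before 0 of 48 starts on either strand, against 1.62% of the starts of measured genes. A match describes letters only, and a missing match says nothing of the factor.

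Levels per length were compared between genes as CPM for each kilobase of exon, using the deposited gene lengths of 897 to 11380 bases. FDFT1, which encodes squalene synthase, was highest in DMSO at 255 CPM per kb and stood behind FADS1 and SCD with cabozantinib at 194. FADS1, a fatty acid desaturase, stood behind FDFT1 and SCD in DMSO at 211 and was first with cabozantinib at 297. SCD, the stearoyl-CoA desaturase that makes oleic acid, was second in both libraries, at 217 and 218 CPM per kb. VLDLR was lowest in both, at 0.865 and 0.0888 CPM per kb. In CPM, 36 of the 38 genes were at 10 or more in both libraries and 23 at 100 or more. Their median level stood at percentile 88.9 of all measured genes, so most of these genes are abundant in K562 and have narrow counting intervals.

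**Figure D1:**
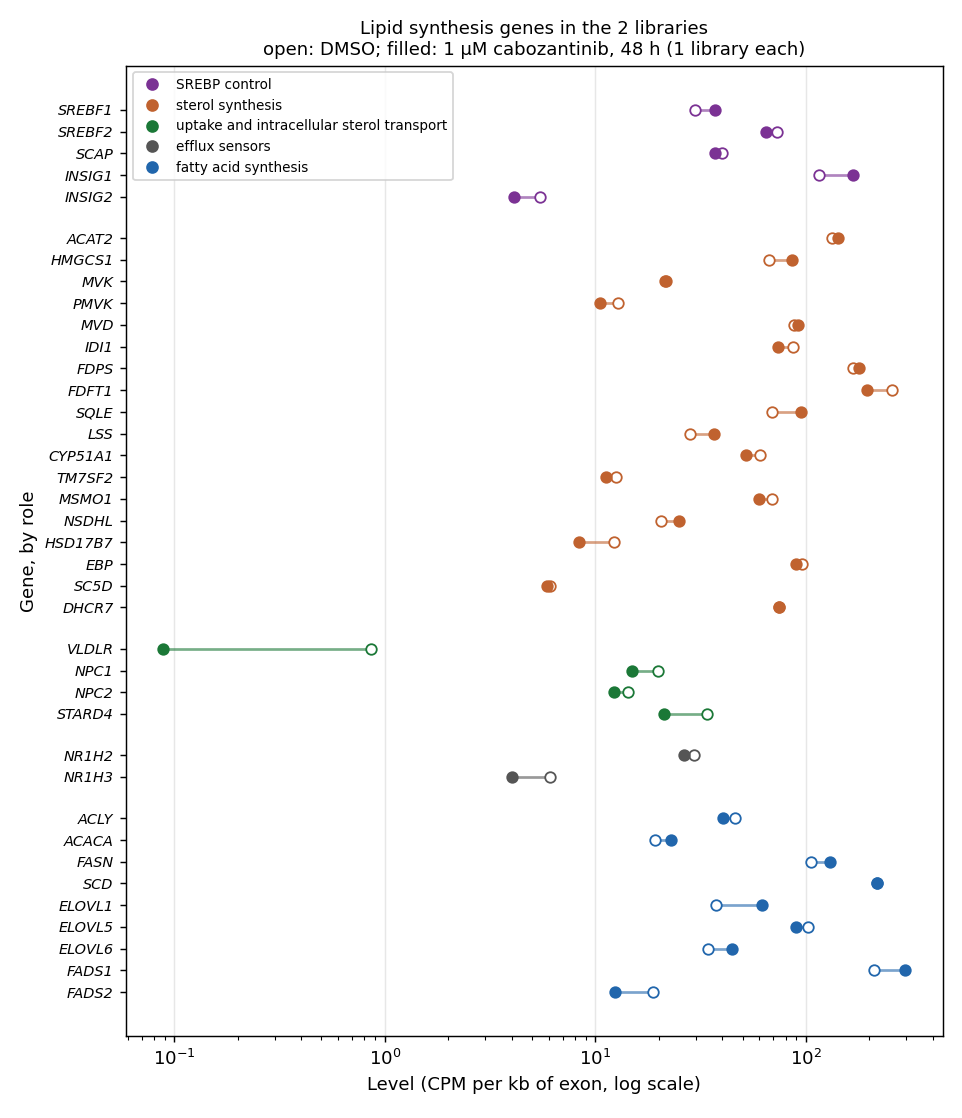
Level of each of the 38 genes in CPM per kb of exon (log axis), grouped by role, with open points for the DMSO library and filled points for the cabozantinib library (1 library each). Most pairs of points lie close together, and the widest gap is that of VLDLR, from 0.865 to 0.0888 CPM per kb.

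The genes together took 0.824% of all counts in DMSO (exact 95% interval 0.821% to 0.828%) and 0.845% with cabozantinib (0.841% to 0.848%). Their median log2 ratio, cabozantinib over DMSO, was -0.10, against 0.01 for all measured genes. Their summed CPM gave a log2 ratio of 0.12, the opposite sign. The sum weights abundant genes such as FADS1 and FASN, whose ratios were positive, while 23 of 38 genes had negative ratios. The median size of the log2 ratio, whatever its sign, was 0.27 for the 38 genes and 0.28 for all measured genes. For all genes at a mean of 10 CPM or more, a level nearer that of most of the 38, it was 0.23. Intervals excluded no change, at any size, for 13 of the 38 genes on the high side and 18 on the low side. Over all measured genes these shares were 34.8% and 32.1%. The high-side share of the 38 was thus close to that of all measured genes, and the low-side share was above it. Most of the 38 genes are more abundant than the typical measured gene and have narrower intervals, so the shares are not of like genes.

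**Figure D2:**
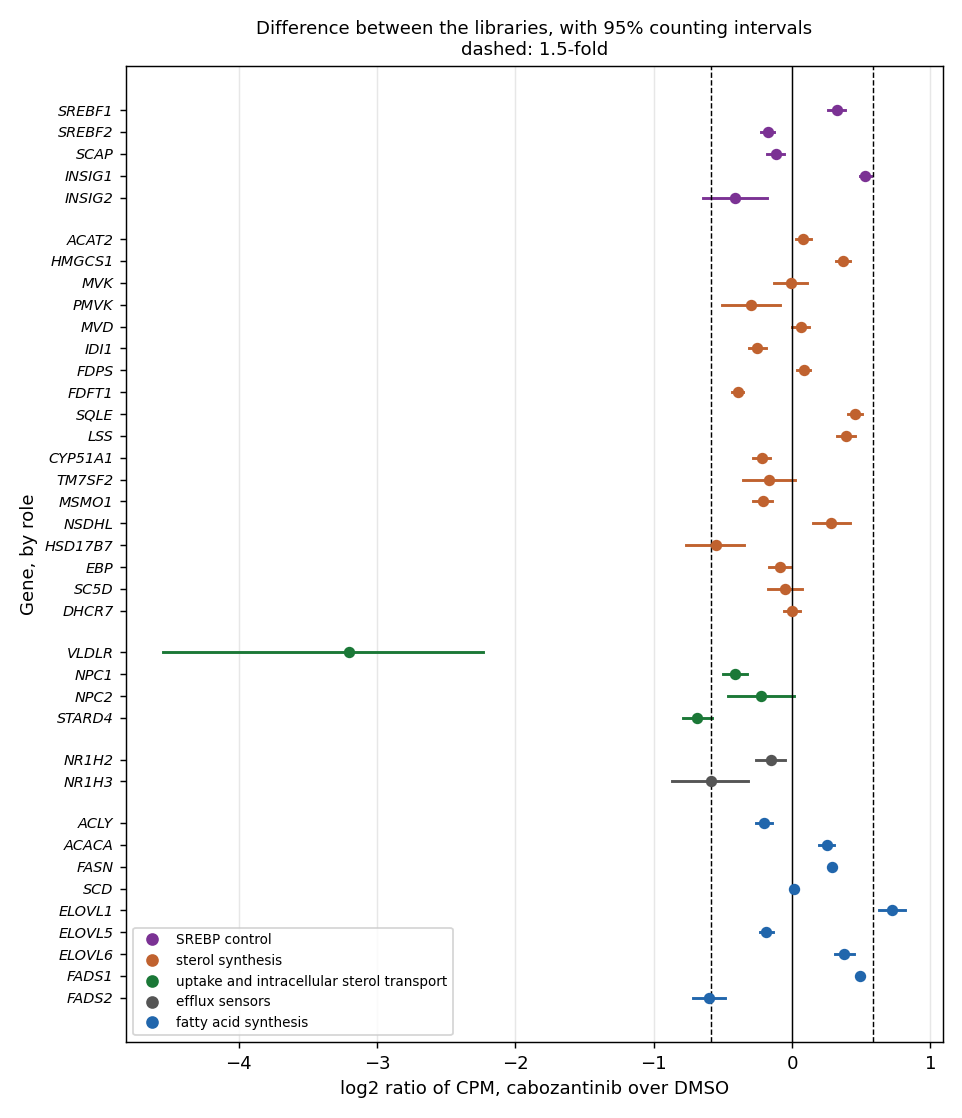
log2 ratio of CPM, cabozantinib over DMSO, for each of the 38 genes by role, with 95% counting intervals as bars and dashed lines at 1.5-fold. ELOVL1 lies to the right of the dashed lines, VLDLR, STARD4, FADS2 and NR1H3 lie to the left, and the 18 sterol synthesis enzymes lie between them.

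None of the 5 SREBP control genes was past 1.5-fold (8.15% of all measured genes were higher and 12.3% lower), and they did not share a direction. SREBF1, whose product SREBP-1 mainly drives fatty acid genes, had 3819 counts in DMSO against 4590 in the treated library, or 148 and 185 CPM, a log2 ratio of 0.32 (0.26 to 0.38). SREBF2, whose product SREBP-2 mainly drives sterol genes, had 8115 and 6902 counts, or 315 and 279 CPM, a log2 ratio of -0.18 (-0.22 to -0.13). The SREBF1 level was thus higher and the SREBF2 level lower with cabozantinib, each by more than counting error. SCAP, the escort protein, was at 170 and 157 CPM, a log2 ratio of -0.12 (-0.18 to -0.06).

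The INSIG genes, whose products retain SCAP in the endoplasmic reticulum, went in opposite directions. INSIG1, itself a well known SREBP target (Entrez 3638, hg19 chromosome 7, 155089486 to 155101945), had 9158 counts in DMSO against 12707 in the treated library, or 355 and 513 CPM. It was 1.44-fold higher (1.41 to 1.48), a log2 ratio of 0.53 just short of the threshold of 0.58. INSIG2, which is not known to need SREBP, was far less abundant, with 365 and 264 counts or 14.2 and 10.7 CPM, a log2 ratio of -0.41 (-0.64 to -0.18). The median log2 ratio of the 5 genes was -0.12, whereas their summed CPM gave 0.19, since INSIG1 holds much of the sum.

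In the sterol synthesis route 0 of 18 enzymes were higher and 0 lower by 1.5-fold, against 8.15% and 12.3% of all measured genes. With so few enzymes, counts of 0 lie near those shares. On the log2 scale their median ratio was -0.03 and their summed level was 2773 CPM in DMSO and 2776 CPM with cabozantinib. Below that threshold the enzymes went both ways, with intervals above no change for 6, below it for 7 and across it for 5. The sum therefore hides differences of up to 1.47-fold in single enzymes.

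Among the 8 enzymes up to squalene, HMGCS1, the synthase that commits acetyl units to the mevalonate route, had the highest log2 ratio. It had 6024 counts in DMSO against 7484 in the treated library, or 234 and 302 CPM, 0.37 (0.32 to 0.42) on the log2 scale. ACAT2, the cytosolic thiolase before it, had a log2 ratio of 0.08, and 25.6% of its exon length lies under exons of the opposite gene TCP1, which had a log2 ratio of 0.57. The mevalonate kinases followed with -0.01 (-0.13 to 0.11) for MVK and -0.29 (-0.50 to -0.09) for PMVK on 430 and 337 counts. MVD, the decarboxylase, stood at 0.06 (-0.00 to 0.12). IDI1, the isomerase of the isoprene unit, was at 186 and 157 CPM, -0.25 (-0.31 to -0.19), and FDPS, which joins units to farnesyl diphosphate, at 277 and 294 CPM, 0.08 (0.04 to 0.13). Within this stretch of the route HMGCS1 was thus at a higher level and IDI1 at a lower one with cabozantinib.

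The branch to squalene showed the clearest contrast between consecutive enzymes. FDFT1, which condenses farnesyl diphosphate to squalene, had 13844 counts in DMSO against 10126 in the treated library, or 537 and 409 CPM, a log2 ratio of -0.39 (-0.43 to -0.36). SQLE, the epoxidase that acts next and is a rate-limiting oxygen-dependent step, had 5342 and 7031 counts, or 207 and 284 CPM, a log2 ratio of 0.45 (0.40 to 0.50). LSS, which closes the ring to lanosterol, was at 133 and 175 CPM, 0.39 (0.33 to 0.46). Thus squalene synthase was lower, and the pair of enzymes that turn squalene into lanosterol higher, in the cabozantinib library.

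After lanosterol the enzymes were mostly at or slightly below their DMSO level. CYP51A1, the demethylase, had a log2 ratio of -0.22 (-0.28 to -0.16) and MSMO1, the methylsterol oxidase, -0.21 (-0.28 to -0.14). The reductase TM7SF2 stood at -0.16 (-0.35 to 0.02) on 513 and 440 counts. NSDHL, which removes the carboxyl group, was the exception at 0.28 (0.15 to 0.42), on 857 and 1003 counts. HSD17B7, the ketoreductase of the same step, had 478 counts in DMSO against 313 in the treated library, a log2 ratio of -0.55 (-0.76 to -0.35), and passed 1.5-fold as lower at -0.64 under scaling by total counts. EBP, the sterol isomerase, stood at -0.09, and the last enzymes SC5D at -0.05 (-0.18 to 0.07) and DHCR7, at 199 CPM in both libraries, at -0.00 (-0.06 to 0.06). HSD17B7, FDPS and CYP51A1 have pseudogenes of similar sequence, so their counts are uncertain individually.

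All 4 genes of sterol uptake and intracellular transport had negative log2 ratios, and 2 of them, VLDLR and STARD4, were lower by 1.5-fold (12.3% of all measured genes). The group median was -0.55, against 0.01 for all measured genes, and the group's summed level went from 189 to 131 CPM. VLDLR, a receptor for triglyceride-rich lipoproteins (Entrez 7436, hg19 chromosome 9, 2621793 to 2654485), had 81 counts in DMSO against 8 in the treated library, or 3.14 and 0.323 CPM. It was 9.22-fold lower (4.71 to 23.3), on few counts. It passed the 1 CPM filter through the DMSO library alone, where it was higher, so at its level the filter favours a lower call. It is the gene of the group with the lowest level, at percentile 7.22 of all measured genes, and at a filter of 5 CPM it drops out.

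STARD4, a carrier that moves cholesterol between membranes (Entrez 134429, hg19 chromosome 5, 110834022 to 110848157), had 1979 counts in DMSO against 1184 in the treated library, or 76.8 and 47.8 CPM. It was 1.61-fold lower (1.49 to 1.73). NPC1, the membrane protein that exports cholesterol from lysosomes, had 2471 and 1783 counts, or 95.9 and 72.0 CPM, a log2 ratio of -0.41 (-0.50 to -0.33). NPC2, its soluble partner inside the lysosome, had 329 and 271 counts, -0.22 (-0.46 to 0.01). Short antisense genes share exon bases with VLDLR (VLDLR-AS1, 172 bases, 5 and 0 counts) and with STARD4 (STARD4-AS1, 75 bases, 6 and 1 counts), and although the libraries were strand-specific, the sources used here do not give the strand setting of the counting.

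The efflux sensors were both at a lower level with cabozantinib. NR1H3 encodes LXR alpha, the inducible form, on hg19 chromosome 11 at 47270449 to 47290401. It had 285 counts in DMSO against 182 in the treated library, or 11.1 and 7.35 CPM, and was lower by the rule used. Its log2 ratio of -0.59 (-0.87 to -0.32) lies at the threshold, and the call ended with a pseudocount of 5 (-0.58), with a length trend removed (-0.57) and with an abundance trend removed (-0.52). NR1H2, the widely expressed LXR beta, was the more abundant of the pair at 60.6 and 54.5 CPM, with a log2 ratio of -0.15 (-0.26 to -0.05).

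Fatty acid synthesis was the one role with a positive median, a log2 ratio of 0.25, with 1 of 9 genes higher and 1 lower by 1.5-fold (8.15% and 12.3% of all measured genes). Its summed level went from 3968 to 4583 CPM and its share of all counts from 0.409% (0.406% to 0.411%) to 0.445% (0.443% to 0.448%). Removing a length trend gave a median of 0.17 and scaling by total counts 0.16. SCD, FADS1 and FASN were the most abundant of them, at 1185, 933 and 897 CPM in DMSO.

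The enzymes that build palmitate differed from each other in direction. ACLY, which makes cytosolic acetyl-CoA from citrate, had 5178 counts in DMSO against 4331 in the treated library, a log2 ratio of -0.20 (-0.26 to -0.14). ACACA, the acetyl-CoA carboxylase that commits carbon to fatty acids, had 5619 and 6419 counts, 0.25 (0.20 to 0.30). FASN, the fatty acid synthase, had 23116 and 27121 counts, or 897 and 1095 CPM, 0.29 (0.26 to 0.31). The carboxylase and synthase were therefore higher and the citrate lyase lower, all within 1.5-fold.

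Of the 3 elongases among the 38 genes, ELOVL1 was higher while ELOVL5 was not. ELOVL1, which extends saturated and monounsaturated chains to very long ones for sphingolipids (Entrez 64834, hg19 chromosome 1, 43829072 to 43833699), had 1425 counts in DMSO against 2260 in the treated library, or 55.3 and 91.2 CPM. It was 1.65-fold higher (1.54 to 1.76). ELOVL6, which extends palmitate to stearate, had 3009 and 3756 counts, a log2 ratio of 0.38 (0.31 to 0.45). ELOVL5, which extends polyunsaturated chains, had 7802 and 6596 counts, -0.19 (-0.23 to -0.14). Among these 3 elongases ELOVL1 had the largest log2 ratio in size and ELOVL5 the only negative one.

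Among the desaturases, FADS1 and FADS2, neighbours on chromosome 11 that act in the same polyunsaturated route, had log2 ratios of opposite sign. FADS1, the delta-5 desaturase (hg19 chromosome 11, 61567097 to 61584529, minus strand), had 24032 counts in DMSO against 32488 in the treated library, or 933 and 1312 CPM. It was 1.41-fold higher (1.38 to 1.43). FADS2, the delta-6 desaturase (61595713 to 61634825, plus strand), had 1528 and 968 counts, or 59.3 and 39.1 CPM, 1.52-fold lower (1.40 to 1.65). In the deposited annotation their first bases face away from each other with 11183 bases between them. SCD had 30526 and 29594 counts, a log2 ratio of 0.01 (-0.01 to 0.04), which became -0.07 when libraries were scaled by total counts and was negative in 4 alternatives.

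**Figure D3:**
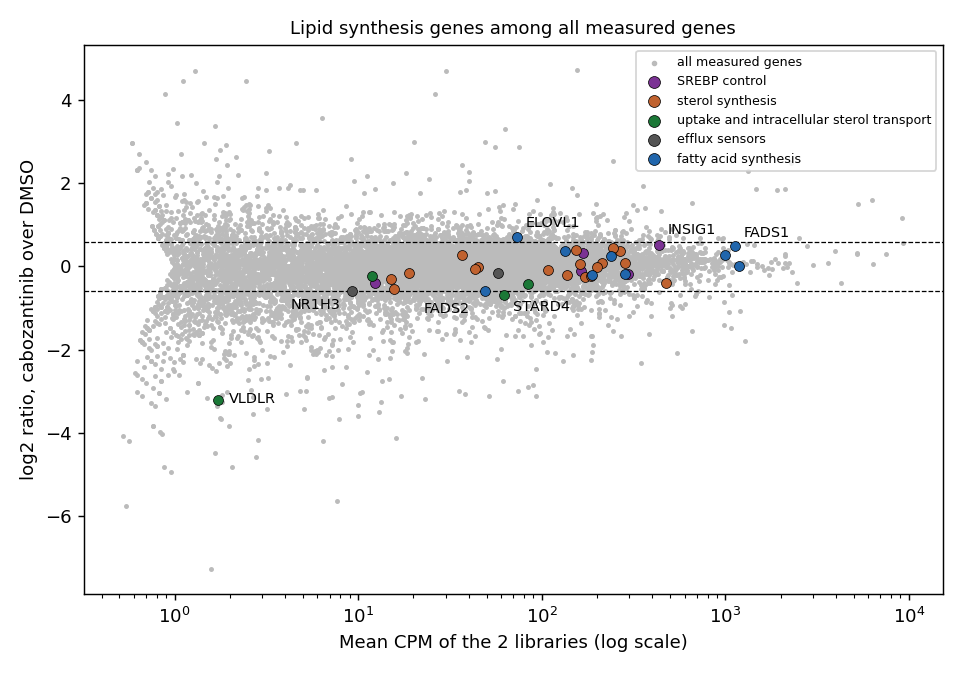
log2 ratio, cabozantinib over DMSO, against the mean CPM of the libraries (log axis) for all 12536 measured genes in grey and for the 38 genes in colour by role, with dashed lines at 1.5-fold. Most of the coloured points lie at high levels inside the dashed lines, and VLDLR lies apart at a low level with a log2 ratio of -3.20.

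Ratios between genes of the same library do not depend on scaling, and 5 pairs, chosen after their values were seen, describe the contrasts. Each pair is written with the gene of the higher log2 ratio first, so the direction of change is set by construction. FADS1 had 15.7 counts for each count of FADS2 in DMSO and 33.6 with cabozantinib, a 2.13-fold change of the ratio (exact 95% interval 1.96 to 2.32). INSIG1 over INSIG2 went from 25.1 to 48.1, a change of 1.92-fold (1.63 to 2.26). Since one member of each pair was higher and the other lower, the balance moved further than either gene. ELOVL1 over ELOVL5 went from 0.183 to 0.343, 1.88-fold (1.74 to 2.02), and SQLE over FDFT1 from 0.386 to 0.694, 1.80-fold (1.72 to 1.88). SREBF1 over SREBF2 moved least, from 0.471 to 0.665, 1.41-fold (1.34 to 1.49).

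**Figure D4:**
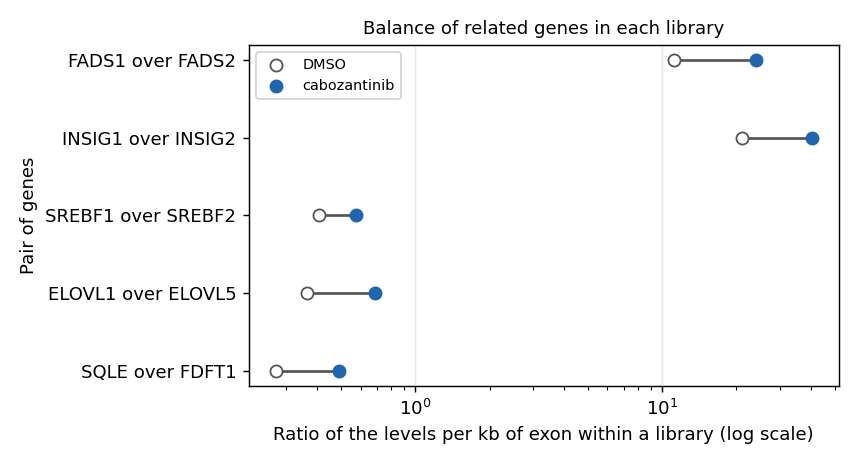
Ratio of the levels per kb of exon of 5 pairs of related genes within each library (log axis), open for DMSO and blue for cabozantinib. Each pair is written with the gene of the higher log2 ratio first, so all 5 ratios are larger with cabozantinib by construction. The ratio of FADS1 over FADS2 goes from 11.2 to 23.9.

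In the authors' deposited table, whose calls are posterior probabilities of differential expression, 1 of the 38 genes, VLDLR, reached 0.95, against 4.66% of the 17392 genes listed. ELOVL1 had a probability of 0.392 in the authors' deposited table and a fold of 1.64. STARD4 had 0.325 and a fold of 0.619 in the authors' deposited table, and FADS2 0.148 and NR1H3 0.113 there. The 4 genes other than VLDLR that passed 1.5-fold on the counts were thus not called by the authors' deposited table.

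A further 117 lipid genes in 8 lists give the surroundings of these routes. Of these, 106 were measured, 7 higher (8.15% over all measured genes) and 14 lower (12.3%) by 1.5-fold, and the median of the log2 ratios was -0.06. The same 8.15% and 12.3% apply beside the counts of each list below. The median of all measured genes was 0.01. Among 15 genes of the isoprenoid branches that leave the sterol route, 2 were higher and 0 lower, and the median was 0.15. They were DOLK, the dolichol kinase, 1.79-fold higher (1.53 to 2.12), and PDSS1, which builds the tail of coenzyme Q, 1.53-fold higher (1.36 to 1.73). Of 14 genes of SREBP processing and sterol-regulated degradation 0 were higher and 2 lower, and the list's median was -0.02. MBTPS2, the site-2 protease that frees SREBP from the membrane, had 1182 counts in DMSO against 620 in the treated library and was 1.83-fold lower (1.66 to 2.02), while its partner MBTPS1 stood at a log2 ratio of -0.24. The difference in MBTPS2 was thus larger than that of any of the 5 SREBP control genes above.

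Sterol storage and transfer genes were mostly level, with 0 higher and 1 lower of 16 measured and a median on the log2 scale of -0.05. The lower gene was SCARB2, a lysosomal membrane protein, by 1.59-fold (1.45 to 1.74). Of 7 measured LXR partners and targets 1 was higher and 0 lower, and the median was 0.30. RXRA, the partner receptor of LXR, went from 880 to 1321 counts, 1.56-fold higher (1.43 to 1.70), while NR1H3 itself was lower. MYLIP, an LXR target that degrades lipoprotein receptors, had a log2 ratio of 0.36.

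The list of acetyl-CoA and NADPH supply held differences above 2-fold, with 1 higher and 3 lower of 9. Its median on the log2 scale was -0.36, against 0.01 for all measured genes. Not all of its genes supply these, since ACACB is an acetyl-CoA carboxylase and MID1IP1 a regulator of acetyl-CoA carboxylase. Both had negative ratios, and ACACB was 1 of the 3 lower genes. ACSS1, the mitochondrial acetyl-CoA synthetase, had 163 counts in DMSO against 749 in the treated library, 4.77-fold higher (4.03 to 5.70). IDH1, a cytosolic source of NADPH, had 8582 and 3108 counts, 2.65-fold lower (2.55 to 2.77), and ME1, the malic enzyme, 1261 and 693 counts, 1.75-fold lower (1.59 to 1.92). The cytosolic synthetase ACSS2, an SREBP target, had a log2 ratio of -0.48. ACSS1 was thus alone in this list in having a positive ratio, with 8 of 9 negative.

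Of 14 measured genes of fatty acid elongation, desaturation and activation outside the 38, 1 was higher and 5 lower, and the median of the log2 ratios was -0.24. ELOVL7 was 2.20-fold lower (1.88 to 2.59) on 502 and 219 counts, and ACSL1, which activates long-chain fatty acids, 1.90-fold lower (1.74 to 2.09) on 1457 and 735. ACSL6, on 65 and 110 counts, was 1.75-fold higher (1.28 to 2.43). FADS3, the relative of FADS1 and FADS2 in the same chromosomal cluster, had a log2 ratio of 0.44, the sign of FADS1.

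Of 15 measured genes of glycerolipid synthesis and lipid droplets 1 was higher and 2 lower, and the median of the log2 ratios was 0.16. The acyltransferase gene AGPAT4 was 1.72-fold higher (1.56 to 1.89), the lipase PNPLA2 1.62-fold lower (1.51 to 1.73) and the droplet coat protein PLIN2 1.58-fold lower (1.47 to 1.70). Among 16 measured genes of fatty acid oxidation 1 was higher and 1 lower, against 8.15% and 12.3% of all measured genes. Their median was -0.12, with 13 negative ratios, where the median of all measured genes was 0.01. PPARA, a nuclear receptor that drives oxidation genes, went from 311 to 619 counts, 2.07-fold higher (1.80 to 2.38), and ETFDH, which passes electrons from oxidation to the respiratory chain, was 1.62-fold lower (1.47 to 1.80).

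**Figure D5:**
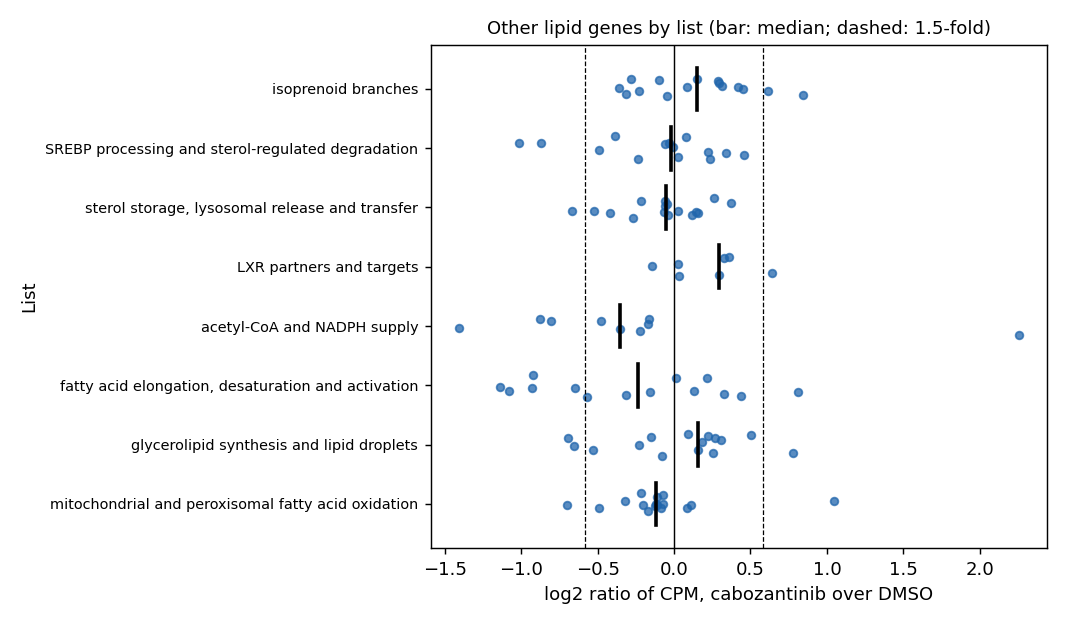
log2 ratio of each measured gene, cabozantinib over DMSO, in 8 lists of other lipid genes, with a black bar at each list's median and dashed lines at 1.5-fold (vertical scatter within a list is only for display). The medians range from -0.36 in the list named acetyl-CoA and NADPH supply to 0.30 in LXR partners and targets. The single point far to the right is ACSS1.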

How the data were processed

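The deposited files hold whole-number read counts per Entrez gene for 1 library per group. Per the file headers, Rsubread aligned the reads to hg19, and hg19 and GRCh37 appear in the submitters' processing notes. Libraries were strand-specific, per the labels' protocols. The sources used here do not give the counter's version, its strand setting or its treatment of multiple alignments. The authors' deposited table adds a posterior probability (a score from 0 to 1) and a shrunken fold ratio per gene. The 4 columns of per-library values in it match no sample's labels and were left out.

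Groups were taken from the treatment labels. TMM factors, 1.03 for DMSO and 0.971 for cabozantinib, came from edgeR 4.0.16 (R 4.3.3). log2 ratios used a pseudocount of 0.5, and exact (Clopper-Pearson) 95% intervals of the ratio of the counts were added. These intervals cover counting error only. With 1 library per group no test was made. The calculation was tested on simulated counts. Alternatives changed the scaling (upper quartile, total counts, size factors of DESeq2 1.42.0, TMM without globin and mitochondrial genes), filter, pseudocount, threshold, fold source, and length or abundance trends.

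All 38 genes are named, and from each wider list up to 2 measured genes each way by the interval bound nearest no change. One gene that this rule names is not reported here. Further genes of those lists (MBTPS1, MYLIP, ACSS2, FADS3) were picked after their values were seen, and ACACB and MID1IP1 are named for their function. The members and lists were chosen with earlier results of these data known. Calculations used scipy 1.17.1, statsmodels 0.14.6, pandas 2.3.3 and numpy 2.4.6 in Python 3.11.15. Promoters come from RefSeq on GRCh38.p14.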

Additional observations from a re-analysis of the deposited data

How the results depend on the processing

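With 1 library per group no replicate could be left out, and no paired analysis was possible because each group holds 1 library. Of 417 single-gene values under 11 alternatives, 370 stayed inside the gene's counting interval, and 33 of 38 genes kept their sign in all of them (ACAT2, MVK, MVD, DHCR7 and SCD, all near 0, did not). Alternatives that changed only the filter leave every ratio as it was, so their values lie inside the interval by construction. At a 2-fold threshold 0 of the 38 genes were higher and 1 lower, with 0 higher and 0 lower in fatty acid synthesis, 0 lower efflux sensors and 1 lower uptake gene, and 2 higher and 4 lower among the wider genes. At a threshold of 25% 8 were higher and 8 lower, with 2 higher and 1 lower in SREBP control, 3 and 2 in sterol synthesis, 3 higher in fatty acid synthesis, and 17 and 24 among the wider genes. Over all measured genes the shares higher and lower were 2.71% and 5.76% at 2-fold, and 19.2% and 20.5% at 25%. Under total counts the medians were -0.19 for all 38 genes, -0.20 for SREBP control, -0.12 for sterol synthesis (1 lower) and 0.16 for fatty acid synthesis, where the median of all measured genes was -0.07. With an abundance trend removed they were -0.19 for SREBP control and 0.18 for fatty acid synthesis, and with a length trend removed 0.17 for fatty acid synthesis. Both trends and a pseudocount of 5 left 0 lower efflux sensors, and a 5 CPM filter left 1 lower uptake gene. As summed CPM, all 38 genes gave 0.12 and SREBP control 0.19.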
